A study of Mus musculus with 45 samples.

Results

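Neural progenitors that carried either OKMS or OKS were compared after they had been moved to 2i-LIF, the medium in which mouse embryonic stem cells are kept. The members were the libraries of OKMS and OKS cells that the labels place in 2i-LIF, which are 5 of the 45 libraries of the series. They form 2 pairs of equal day and chemistry, OKMS and OKS at day 20 in R9 and OKMS and OKS at day 18 in R10, and 1 further OKMS library at day 14 in R9 that has no OKS partner. There is 1 library per system, medium, day and chemistry, so no pair has replicates of its own, and the R9 and R10 pairs differ in day as well as in chemistry. The labels do not say that libraries were separate cultures, so every p-value measures the spread between these libraries only.

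Line O4G, an R1 embryonic stem cell line with an Oct4-GFP reporter, gave rise to the progenitors, which carried the factors on a stably transfected construct under doxycycline. The labels give the genotypes as OKMS-Luciferase-AS and OKS-Luciferase-AS, which leaves Myc as the only difference in name, and do not state what the luciferase element does or whether either line is 1 clone. Cells were induced in serum medium with LIF and 1 µg/mL doxycycline (FBS-LIF with doxycycline). The 2i-LIF medium held LIF at 20 ng/mL, the GSK3 inhibitor CHIR-99021 at 3 µM and the MEK inhibitor PD0325901 at 1 µM, and the labels list no doxycycline in it. For R9 the move to 2i-LIF was at day 6, and for the R10 libraries the labels do not give that day. The R9 2i-LIF libraries are labelled as induced pluripotent stem cells, while the R10 ones are labelled only as part of the time course. R9 libraries were direct cDNA of poly(A)-enriched RNA and R10 libraries PCR cDNA of total RNA, both read on Oxford Nanopore flow cells.

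Myc, with its partner Max, binds E-box sequences and drives growth and metabolism genes, and as a reprogramming factor it speeds the early response to the other factors. The inhibitors in 2i-LIF block the ERK pathway, which pushes stem cells towards differentiation, and raise Wnt pathway activity, so that cells that have reached naive pluripotency keep it and other cells are held back. Pluripotent cells in this medium no longer need the introduced factors.

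The 5 libraries held 566599 to 929564 reads, in a series that ranged from 447990 to 4236442. Levels are given as CPM, read counts scaled to a common library total, and 1 read was worth 1.07 to 1.76 CPM in these 5 libraries, so a gene below 10 CPM rests on a few reads. Of the 9 embryonic stem cell libraries used for comparison, 1 R10 library of line R1, the only R10 one without an n number in its label, stood apart: it differed at least 2-fold from the other 6 R10 stem cell libraries at 13.2% to 17.1% of genes, while those 6 differed from one another at 0.886% to 5.02%. Ranges over the R10 stem cells are given without it for single genes, and over all 7 for summed lists. The stem cell lines were O4G and R1 in R9, and O4G, R1 and a line labelled R1 c3 in R10. The uninduced progenitors used for comparison were 4 libraries per chemistry, of wild-type cells without factors as well as of OKMS and OKS carriers. The mitochondrial share of reads was 0.397% and 0.415% in the R9 pair (OKMS, then OKS) and 1.56% and 1.96% in the R10 pair.

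The cells in 2i-LIF carried the markers of naive pluripotent cells in both systems. The summed level of 11 naive pluripotency genes was 3587 CPM in OKMS and 3223 CPM in OKS in R9, and 2989 and 3670 CPM in R10, beside 3125 to 3392 CPM in R9 stem cells, 2824 to 3331 CPM in R10 stem cells and at most 20.2 CPM in progenitors. Late in FBS-LIF the same sum was 1872 and 1686 CPM in R9 and 964 and 918 CPM in R10. Nanog, a core naive factor, stood at 1222 CPM in OKMS and 1008 CPM in OKS in R9, and at 1180 and 1361 CPM in R10. Zfp42, also known as Rex1, stood at 1139 and 1100 CPM in R9 and at 991 and 1284 CPM in R10. Esrrb, another naive factor, was at 281 and 207 CPM in R9 and at 227 and 274 CPM in R10. Each of these genes was higher in OKMS in the R9 pair and higher in OKS in the R10 pair, so no direction was shared. Among the other naive genes, Klf2 was at 317 and 293 CPM in R9 and at 74.1 and 108 CPM in R10, and Klf5 at 215 and 142 CPM and at 98.7 and 84.5 CPM. Tfcp2l1, a target of LIF and Wnt signals, was higher in OKS in both pairs, at 110 and 123 CPM in R9 and 101 and 147 CPM in R10. Prdm14 was also higher in OKS in both, at 46.2 and 59.4 CPM and at 47.6 and 51.6 CPM, while Tbx3 was level in R9 at 67.7 and 67.5 CPM and at 129 and 192 CPM in R10. Nr0b1 had opposite orders, at 67.7 and 94.3 CPM in R9 and 61.7 and 48.5 CPM in R10, and Fgf4, the ERK-activating ligand of naive cells, was at 103 and 97.8 CPM and at 56.4 and 59.4 CPM. Of the 11 naive genes none was 2-fold apart in both pairs, and limma called none. In bulk libraries fewer cells of a type and less RNA per cell cannot be told apart, here and below.

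Of the introduced factors, Pou5f1 (Oct4) was at 1302 CPM in OKMS and 1077 CPM in OKS in R9 and at 896 and 953 CPM in R10. Klf4 was at 128 and 93.1 CPM in R9 and 63.5 and 75.1 CPM in R10. Sox2 was at 112 and 69.8 CPM in R9 and 84.6 and 98.5 CPM in R10. Reads of the construct may be counted on these genes and on Myc, and were not told apart. Pou5f1, Klf4 and Sox2 had the order of Nanog, higher in OKMS in R9 and in OKS in R10. Myc, the factor that only OKMS carries, was at 4.30 CPM in OKMS and 2.33 CPM in OKS in R9, and at 3.53 and 1.56 CPM in R10. Those Myc levels rest on 4 and 2 reads in R9 and 2 and 1 reads in R10, above the R9 stem cell range of 0 to 0.931 CPM and within the R10 range of 0.290 to 11.8 CPM. Late in FBS-LIF, Myc was at 93.6 CPM in OKMS and 49.6 CPM in OKS in R9, and at 5.94 and 52.5 CPM in R10.

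The distance between the systems was first described as the percent of genes at least 2-fold apart within a pair, over genes with a mean of at least 20 CPM in that chemistry (7313 in R9, 7113 in R10). In R9 the OKMS and OKS libraries differed at 5.99% of genes at day 0, 36.5% at day 4, 36.2% at day 10, 27.1% at day 14 and 14.0% at day 20 in FBS-LIF. The R9 pair in 2i-LIF differed at 6.21% of genes. The 2 R9 stem cell libraries, which are of different lines, differed at 4.32%, and OKMS at day 14 differed from OKMS at day 20 in 2i-LIF at 5.65%. In R10 the systems differed at 1.31% of genes at day 0, 40.3% at day 6, 23.3% at day 18 in FBS-LIF and 11.4% at day 18 in 2i-LIF. The pair in 2i-LIF was therefore closer than the FBS-LIF pair of the same day in both chemistries, a difference that has no replicate check.

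Counting error widens differences between shallow libraries, and the pair in 2i-LIF held the fewest reads of the R10 libraries compared. With every library thinned to the same number of reads within its chemistry (447990 in R9, 566599 in R10), the R9 pair in 2i-LIF differed at 10.5% of genes, beside 18.3% in FBS-LIF, 9.07% at day 0 and 9.50% for the stem cell pair. OKMS at days 14 and 20 differed at 9.78%. The thinned R10 pair in 2i-LIF differed at 11.9% of genes, beside 24.4% in FBS-LIF and 5.33% at day 0. The 15 pairs among the 6 R10 stem cell libraries ranged from 7.04% to 12.1%, with a median of 9.42%. At equal depth the R10 pair in 2i-LIF was thus within the range of stem cell pairs, near its upper end, and the R9 pair was 1 percentage point above the single stem cell pair. The stem cell pairs include pairs of different lines, and the 3 pairs of the same line in R10 ranged from 7.04% to 8.03%.

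**Figure D1:**
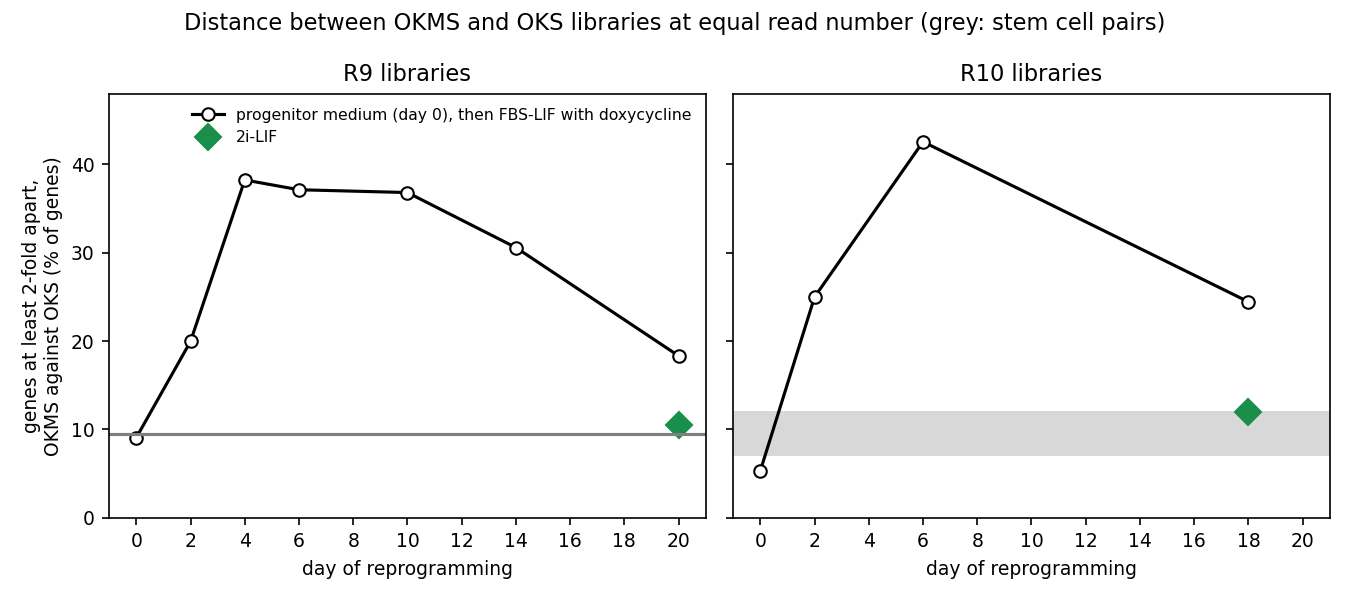
Percent of genes at least 2-fold apart (y axis) between the OKMS and OKS libraries of each day (x axis, days), after thinning to equal reads, in R9 (left) and R10 (right); circles are progenitor medium and FBS-LIF with doxycycline, diamonds 2i-LIF, the grey line the R9 stem cell pair and the grey band the range over 15 R10 stem cell pairs without the library that stood apart. The 2i-LIF pairs lie at 10.5% and 11.9%, below the late FBS-LIF pairs at 18.3% and 24.4%.

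Both systems also lay close together on the path from progenitors to stem cells. The position of a library was a regression slope: its distance from the progenitor mean at each gene was regressed on the distance of stem cells from progenitors, over genes that limma called between those cell types in the other chemistry. A position of 0 is the mean of the 4 progenitor libraries of that chemistry, wild type included, and 1 the stem cell mean. In R9 the position in 2i-LIF was 0.934 for OKMS and 0.924 for OKS at day 20, and 0.941 for OKMS at day 14. In R10 it was 0.964 for OKMS and 0.939 for OKS. Late in FBS-LIF the positions were 0.795 and 0.687 in R9 and 0.766 and 0.613 in R10, so OKMS was ahead of OKS by a wider margin there than in 2i-LIF. The stem cell libraries, which set the mean, lay between 0.994 and 1.01 in R9 and between 0.952 and 1.03 in R10. The value of 0.952 was that of the library that stood apart, and the other R10 ones lay at 0.9955 or above. All 5 libraries in 2i-LIF lay below 1, and the R9 ones below both R9 stem cell libraries. Without the R10 stem cell library that stood apart, OKMS in R10 was at 0.954 and OKS at 0.928. Both were then below the other R10 stem cell libraries, which lay between 0.987 and 1.02.

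**Figure D2:**
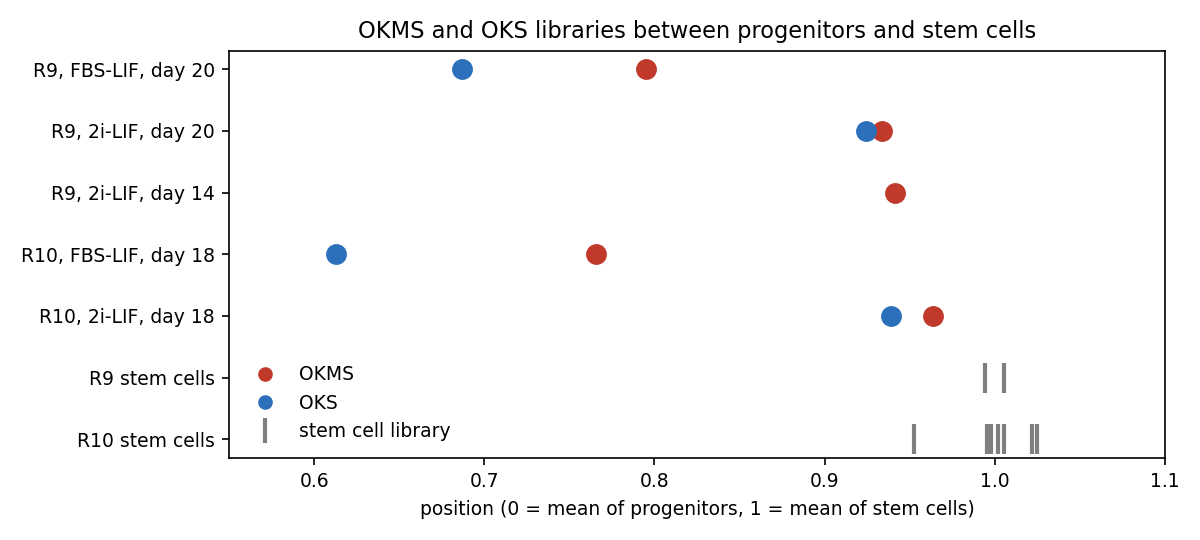
Position (x axis, no unit) of each OKMS and OKS library between the mean of uninduced progenitors (0) and the mean of embryonic stem cells (1), with 1 row per condition; grey ticks are single stem cell libraries. The 5 libraries in 2i-LIF lie between 0.924 and 0.964, and those late in FBS-LIF between 0.613 and 0.795.

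Neither system was the closer to stem cells in both chemistries by a count of genes. In R9, OKMS differed at least 2-fold from the stem cell mean at 5.51% of genes and OKS at 7.88%, while OKMS at day 14 differed at 7.04%. In R10, OKMS differed at 13.0% and OKS at 9.95%, the reverse order. The comparisons with stem cells share the stem cell libraries.

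Gene by gene, no difference between OKMS and OKS in 2i-LIF passed limma's test (Benjamini-Hochberg adjusted p under 0.05 and at least 2-fold), fitted to the 4 libraries in 2i-LIF and the 4 late in FBS-LIF with each pair as a block. It called 0 of 17750 genes, a background of 0.0%, with 693 genes (3.90%) at an unadjusted p under 0.05. The same fit called 0 genes (0.0%) late in FBS-LIF, with 1440 at an unadjusted p under 0.05, and 0 genes (0.0%) for the difference between the media, with 1142. The fit had 2 residual degrees of freedom. Both media shared the same estimate of spread, so disagreement between the late FBS-LIF pairs also enters the 2i-LIF test. The 0 calls therefore do not show that no gene differed in 2i-LIF. Fitted to only the 4 libraries in 2i-LIF, limma called 12 of 15505 genes, with 1585 (10.2%) at an unadjusted p under 0.05. On the recovered whole reads, edgeR's quasi-likelihood test called 8 genes in 2i-LIF, 1 higher and 7 lower in OKMS (0.0451% of genes tested), against 188 late in FBS-LIF (1.06%). DESeq2 called 1 gene in 2i-LIF, Tcf4, and 30 late in FBS-LIF. A limma fit over 26 libraries added day 0, the early days and the R9 FBS-LIF pairs of days 10 and 14. It called 38 genes higher (0.176%) and 53 lower (0.246%) in OKMS in 2i-LIF, of which only 8 had 10 CPM in each pair.

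A rule of size was therefore used to name genes: at least 2-fold apart on the log2(CPM + 1) scale, the same way in both pairs, with at least 10 CPM in 1 library of each pair. Of 8125 genes with that level, 64 were higher in OKMS (0.788%) and 37 lower in OKMS (0.455%), and 32 were 2-fold apart in opposite directions in the R9 and R10 pairs. With each library centred on its median the split was 43 higher and 40 lower. At day 0 the same rule found 13 genes (0.15%), at day 2 956 genes (10.1%), at day 6 2721 genes (28.0%) and late in FBS-LIF 384 genes (4.54%), with 4, 10, 27 and 189 in opposite directions. Across the 8125 genes the R9 and R10 differences in 2i-LIF correlated with r = 0.20, against r = 0.70 at day 2, 0.82 at day 6, 0.08 late in FBS-LIF and 0.01 at day 0. These correlations are across genes, which are not independent, and are given as a description.

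The genes past the rule were mostly low. In 79 of the 101 genes the highest of the 4 values was below 50 CPM, in 7 it was at least 100 CPM, and the median was 29.0 CPM. Of the 64 genes higher in OKMS, 58 were protein-coding and 1 a lncRNA, and of the 37 lower ones 30 were protein-coding and 2 lncRNA. The day 14 OKMS library, which the rule did not use, stood on the OKMS side of OKS at day 20 for 53 of the 64 higher and 34 of the 37 lower genes, with 27 and 17 of them at least 2-fold apart. It shares the OKS library of day 20 with the R9 pair, on which the genes were chosen, so those counts are partly set by that choice. Of 753 genes chosen on the R10 2i-LIF pair alone, 56.2% had the same direction in OKMS at day 14 minus OKS at day 20. Of those 753 genes, 9.03% were at least 2-fold apart that way. Just outside the rule lay Phlda2 and Tnks1bp1, with a smaller pair difference of 0.99 each on the log2 scale, and just inside it novelGene_19564 and Gpd1l, with 1.00 each.

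**Figure D3:**
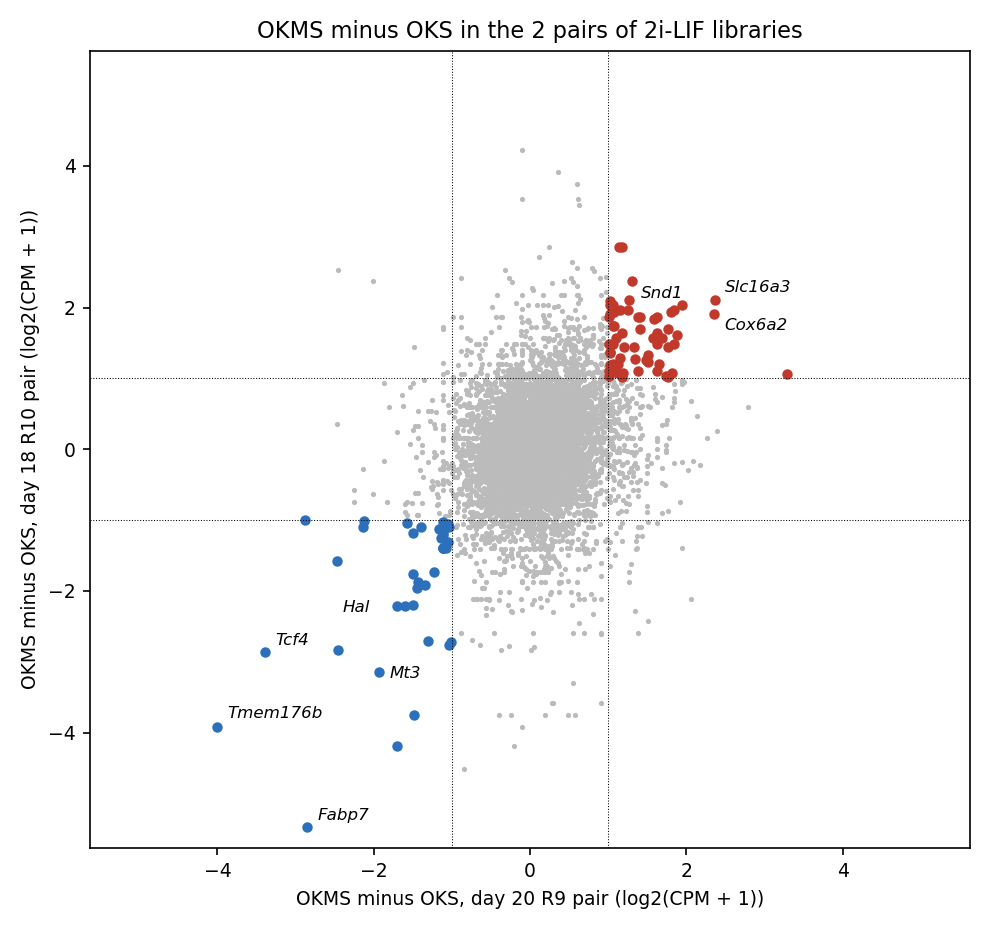
OKMS minus OKS difference on the log2(CPM + 1) scale in the R9 pair of day 20 (x axis) against the R10 pair of day 18 (y axis), both in 2i-LIF, for the 8125 genes with at least 10 CPM in each pair; dotted lines mark 2-fold. Coloured points are the 64 genes higher (red) and 37 lower (blue) in OKMS in both pairs, with Tcf4, Tmem176b and Fabp7 at the lower left.

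Tcf4 was the clearest difference between the systems in 2i-LIF. It encodes an E protein, a basic helix-loop-helix partner of proneural and other factors, and the level in OKMS was 15.0 CPM in R9 (14 reads, 95% Poisson interval 8.23 to 25.2 CPM) and 22.9 CPM in R10 (13 reads, 12.2 to 39.2 CPM). In OKS it was 168 CPM in R9 (144 reads, 141 to 197 CPM) and 172 CPM in R10 (110 reads, 141 to 207 CPM). OKMS at day 14 was at 20.8 CPM. Poisson intervals cover counting error only. The 3 OKMS libraries were a little below the stem cells, which held 23.7 to 28.9 CPM in R9 and 27.6 to 43.3 CPM in R10, while both OKS libraries were above every stem cell library. The same order was seen late in FBS-LIF, with 18.5 CPM in OKMS and 89.8 CPM in OKS in R9 and 31.2 and 143 CPM in R10, and all uninduced progenitors held 334 to 642 CPM. The log2 difference in 2i-LIF was -3.12 with a standard error of 0.31, a limma adjusted p of 0.268, an edgeR adjusted p of 4.0e-10 and a DESeq2 adjusted p of 8.3e-05.

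Tmem176b and Tmem176a, a pair of membrane protein genes best known from immune cells, were at or near 0 in OKMS and present in OKS. Tmem176b was at 0 CPM in OKMS and 15.1 CPM in OKS in R9, and at 1.76 and 40.7 CPM in R10, where 0 reads in R9 allows up to 3.22 CPM. OKMS at day 14 was at 1.22 CPM, and stem cells held at most 2.84 CPM in R9 and 1.79 CPM in R10, with 17.9 CPM in the library that stood apart. Late in FBS-LIF it was at 11.1 CPM in OKMS and 74.0 CPM in OKS in R9 and at 66.8 and 256 CPM in R10, so OKS was higher in all 4 pairs of the late media. The log2 difference in 2i-LIF was -3.96 with a standard error of 0.42 (limma adjusted p = 0.268, edgeR adjusted p = 3.4e-05). Tmem176a was at 0 CPM in both OKMS libraries and at 6.98 and 34.4 CPM in OKS in R9 and R10, and edgeR called it as well. The 2 genes overlap head to head on chromosome 6 of mm10, Tmem176b at chr6:48833818-48841496 on the minus strand and Tmem176a at chr6:48840919-48847071 on the plus strand, so their reads may not be fully separable.

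Several other genes that are high in the progenitors were higher in OKS. Fabp7 (chr10:57784881-57788450, plus strand), the brain fatty acid binding protein and a marker of radial glia, was at 4.30 CPM in OKMS and 37.2 CPM in OKS in R9 (4 and 32 reads), and at 0 and 39.1 CPM in R10 (0 and 25 reads, where 0 reads allows up to 5.29 CPM). OKMS at day 14 was at 4.89 CPM. The level in OKS was higher in 2i-LIF than late in FBS-LIF, where Fabp7 was at 9.34 CPM in R9 and 6.40 CPM in R10. It was 0 in both R9 stem cell libraries and in 6 of the 7 R10 ones, at 21.7 CPM in the library that stood apart, and between 2624 and 5207 CPM in all uninduced progenitors. The log2 difference was -4.09 with a standard error of 0.77, with a limma adjusted p of 0.973 and an edgeR adjusted p of 4.0e-04.

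Mgst1, a microsomal glutathione transferase, was at 0 CPM in both OKMS libraries and at 8.15 CPM in R9 and 18.8 CPM in R10 in OKS (edgeR adjusted p = 0.0036). Late in FBS-LIF it was at 6.16 and 53.2 CPM in R9 and at 31.2 and 211 CPM in R10. Mt3, the brain metallothionein, was at 5.37 and 23.3 CPM in R9 and at 1.76 and 23.5 CPM in R10. Id3, an inhibitor of helix-loop-helix factors and a target of BMP signals, was at 21.5 and 54.7 CPM in R9 and at 12.3 and 86.0 CPM in R10, but at 55.0 CPM in OKMS at day 14 (edgeR adjusted p = 0.0066 without that library). The Id3 level of OKMS at day 14 was thus close to that of OKS at day 20 in R9, while for Tcf4, Fabp7, Mgst1 and Mt3 the day 14 library was with OKMS. Stem cells held 2.84 to 19.5 CPM of Id3 in R9, below both systems, and 37.1 to 161 CPM in R10. In R10 it was therefore OKS that lay within the stem cell range and OKMS that lay below it. Tcf4, Tmem176b, Fabp7 and Mt3 follow from the naming rule, and Tmem176a, Mgst1 and Id3 were chosen after their values were seen, because edgeR called them.

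The list of 17 neural progenitor markers as a whole summed to 166 CPM in OKMS and 255 CPM in OKS in R9 and to 148 and 280 CPM in R10, beside 269 to 289 CPM in R9 stem cells, 193 to 401 CPM in R10 stem cells and at least 7620 CPM in progenitors. Vim, an intermediate filament gene of many cell types, made up most of it, at 132 and 171 CPM in R9 and 118 and 174 CPM in R10. Of 14 members tested, 10 had a negative and 3 a positive log2 difference, with a median of -0.32 against 0 over all 17750 genes tested, and limma called none of them. Olig2 and Sox9 were at 0 in all 4 libraries, and Pax6, Sox1 and Slc1a3 did not exceed 3.53 CPM. Ptn, a growth factor of progenitors, was at 1.07 and 9.31 CPM in R9 and at 0 and 9.39 CPM in R10, too low for the rule of size. Late in FBS-LIF the list summed to 328 and 829 CPM in R9 and 510 and 2167 CPM in R10, again higher in OKS. The part of residual progenitor-like RNA in the Tcf4, Tmem176b and Fabp7 differences was not tested.

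The remaining genes of the 10 lower in OKMS were low in every library. Hal, the histidine ammonia-lyase gene, was at 7.52 CPM in OKMS and 26.8 CPM in OKS in R9 and at 5.29 and 28.2 CPM in R10. The lncRNA 6330410L21Rik was at 9.67 and 31.4 CPM in R9 and at 5.29 and 28.2 CPM in R10, and the lncRNA Gm11496 at 6.45 and 19.8 CPM and at 0 and 12.5 CPM. Both lncRNAs were higher in OKS in each pair. Gm6394 was at 3.22 and 22.1 CPM in R9 and at 1.76 and 18.8 CPM in R10. Trim43a, a tripartite motif gene, was at 1.07 and 10.5 CPM and at 3.53 and 12.5 CPM, and was 0 in all late FBS-LIF libraries. Birc3, an inhibitor of apoptosis, was at 4.30 and 14.0 CPM and at 5.29 and 20.3 CPM. Ap1m2, an epithelial adaptor subunit that edgeR also called and that was chosen after its values were seen, differed mainly in R10, at 10.6 CPM in OKMS and 110 CPM in OKS, with 0 and 2.33 CPM in R9.

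Among the 10 genes that the naming rule takes as higher in OKMS, Snd1 had the most reads behind it, though Igf2r, described below, had more. Snd1 (chr6:28475139-28935162, plus strand) encodes a nuclease-domain cofactor of transcription and RNA metabolism, and was at 75.2 CPM in OKMS in R9 (70 reads, 58.7 to 95.1 CPM) and 115 CPM in R10 (65 reads, 88.5 to 146 CPM). In OKS it was at 24.4 CPM in R9 (21 reads, 15.1 to 37.4 CPM) and 31.3 CPM in R10 (20 reads, 19.1 to 48.3 CPM). OKMS at day 14 was at 83.1 CPM. The OKMS values of days 20 and 18 were within the stem cell range of 73.5 to 81.4 CPM in R9 and 95.7 to 171 CPM in R10, the day 14 value was just above it, and the OKS values were below every stem cell library. Late in FBS-LIF the systems were closer, at 59.1 and 43.1 CPM in R9 and 93.5 and 71.7 CPM in R10. The log2 difference was 1.71 with a standard error of 0.29 (limma adjusted p = 0.973, edgeR adjusted p = 0.0816), and limma over 26 libraries gave an adjusted p of 0.038.

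Slc16a3, the lactate exporter MCT4, was at 16.1 CPM in OKMS and 2.33 CPM in OKS in R9 and at 37.0 and 7.82 CPM in R10. Late in FBS-LIF the R9 pair had the opposite order, 9.85 and 126 CPM, and the R10 pair was level at 72.7 and 70.4 CPM. Cox6a2, the muscle form of a cytochrome c oxidase subunit, was at 27.9 and 4.66 CPM in R9 and at 61.7 and 15.6 CPM in R10, was 0 in all late FBS-LIF libraries and only 6.11 CPM in OKMS at day 14. Both OKMS values of Cox6a2 were above every stem cell library, of which the R9 ones held 8.38 and 10.4 CPM and the R10 ones at most 0.580 CPM. Lpin2, a phosphatidate phosphatase, was at 19.4 and 4.66 CPM in R9 and 21.2 and 4.69 CPM in R10, with 4.89 CPM at day 14. For Cox6a2 and Lpin2 the day 14 OKMS library was therefore nearer to OKS than to OKMS at day 20.

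Ubap1l was at 79.5 CPM in OKMS and 20.9 CPM in OKS in R9 and at 88.2 and 28.2 CPM in R10, with 30.5 CPM in OKMS at day 14. Fam129a (Niban), a stress-related gene, was at 26.9 and 6.98 CPM in R9 and at 38.8 and 9.39 CPM in R10. Appl2, an endosomal adaptor, was at 12.9 and 3.49 CPM and at 14.1 and 3.13 CPM. Foxj2, a forkhead factor, was at 18.3 and 4.66 CPM and at 12.3 and 3.13 CPM. Bhlhe40, a repressor that responds to hypoxia and stress, was at 12.9 and 3.49 CPM and at 26.5 and 7.82 CPM, with 3.66 CPM in OKMS at day 14. The lncRNA E330020D12Rik, the only annotated lncRNA that was higher in OKMS by the rule, was at 19.4 and 8.15 CPM and at 28.2 and 10.9 CPM. Each of these genes had a limma adjusted p of 0.973. OKMS at day 14 held 19.5 CPM of Fam129a, 4.89 CPM of Appl2, 15.9 CPM of Foxj2 and 12.2 CPM of E330020D12Rik. For Appl2 and E330020D12Rik, as for Ubap1l and Bhlhe40, it was nearer to OKS than to OKMS at day 20. The gene novelGene_Pcgf3_AS, unannotated and antisense to Pcgf3, was the 1 gene that edgeR called as higher in OKMS (chosen for that), at 65.6 and 5.82 CPM in R9 but 14.1 and 6.26 CPM in R10 and 6.11 CPM in OKMS at day 14. Whether counting used strand is not given in the sources used here, so its reads cannot be told apart from those of Pcgf3.

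**Figure D4:**
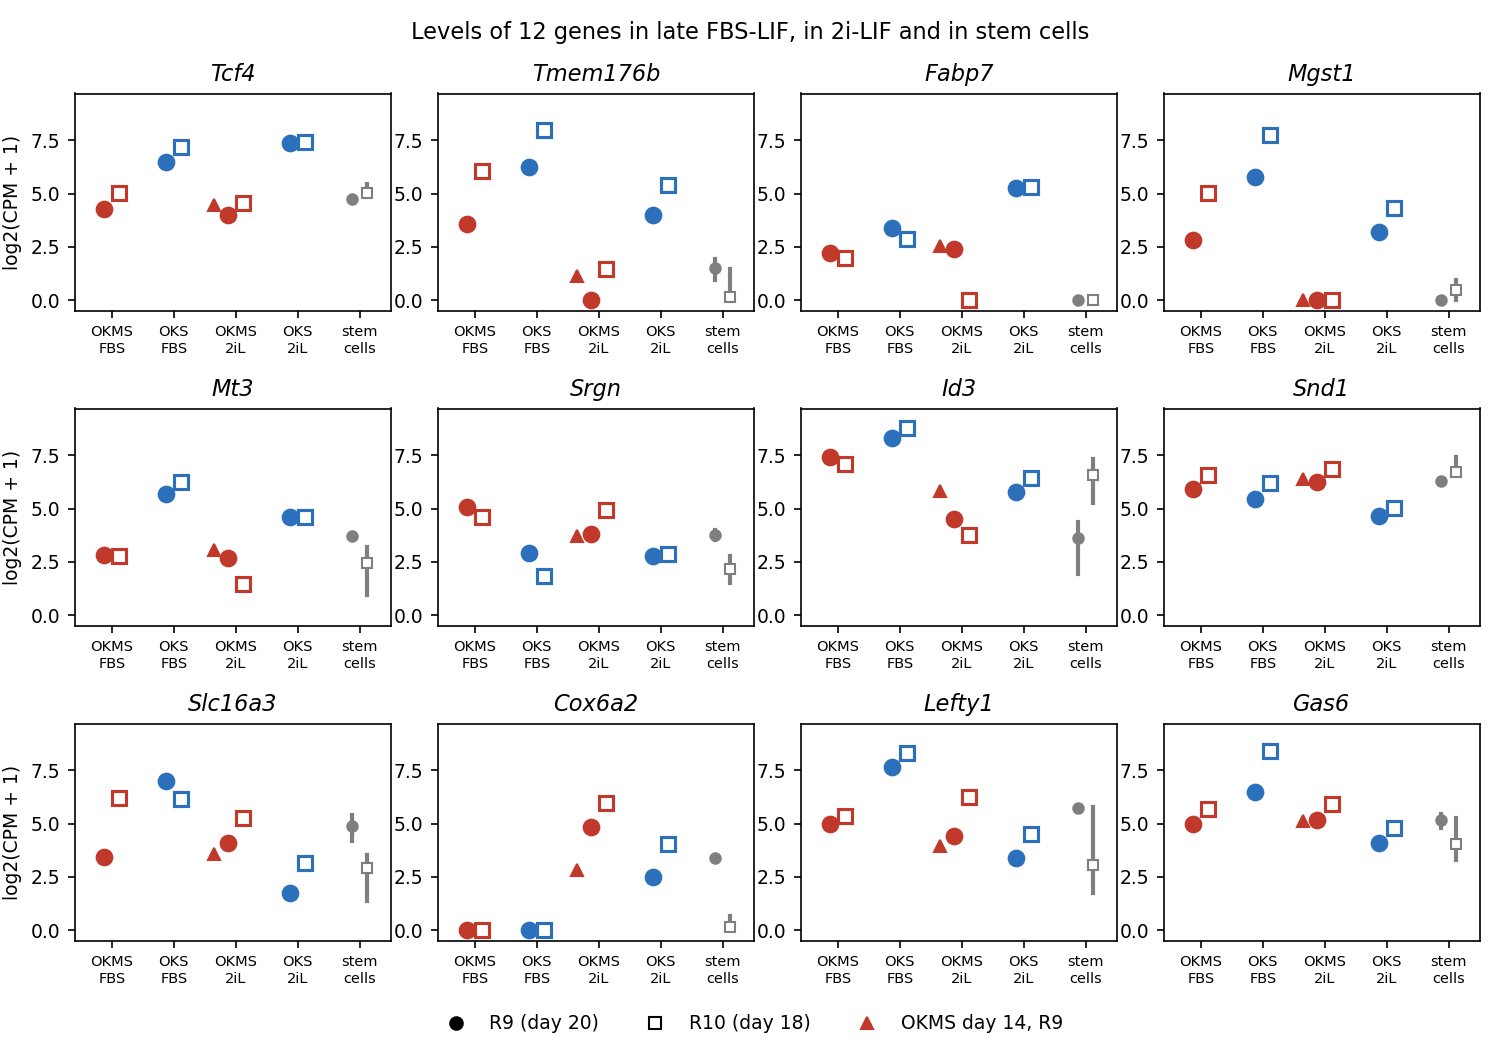
Level of 12 genes on the log2(CPM + 1) scale (y axis) in OKMS (red) and OKS (blue) late in FBS-LIF with doxycycline and in 2i-LIF, with R9 as filled circles, R10 as open squares and OKMS at day 14 in 2i-LIF as a triangle; grey marks give the median and range over 2 R9 and 6 R10 stem cell libraries. Tcf4 is at 15.0 and 22.9 CPM in OKMS and at 168 and 172 CPM in OKS in 2i-LIF, while Lefty1 and Gas6 are higher in OKS in FBS-LIF and higher in OKMS in 2i-LIF.

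Set against stem cells of the same chemistry, the OKMS library was nearer to the stem cell mean than the OKS library for 50 of the 64 higher genes in R9 and for 34 in R10. It was nearer for 27 of the 37 lower genes in R9 and for 18 in R10. In both chemistries together OKMS was nearer for 28 and OKS for 8 of the higher genes, and OKMS for 15 and OKS for 7 of the lower genes. Both distances use the same stem cell libraries. The genes were chosen on the same OKMS and OKS values, and the share over all eligible genes was not counted, so these counts are a description. By the percent of all genes 2-fold from the stem cell mean, OKMS was the nearer in R9 (5.51% against 7.88% for OKS). In R10 OKS was the nearer by that measure (9.95% against 13.0% for OKMS).

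Among genes with enough reads in 2i-LIF, most of the late 2-fold differences in FBS-LIF were not seen at that size there. Of the 384 genes that differed 2-fold the same way in both late FBS-LIF pairs, 163 reached 10 CPM in each 2i-LIF pair. The rest were below that level in at least 1 pair and were not counted either way. Whether their differences lasted is therefore not part of the counts that follow. Of the 163, 41 (25.2%) differed in the same direction in both 2i-LIF pairs and 59 (36.2%) in the opposite direction in both. Over all 8125 eligible genes, 4575 (56.3%) had the same sign in both 2i-LIF pairs, with both directions counted. The 41 and the 59 are therefore a description and not a measure of kept or reversed differences. Of the 163 genes, 6 (3.68%) were still 2-fold apart the same way and 2 the opposite way. Of all 8125 eligible genes, 101 (1.24%) were 2-fold apart in either direction in 2i-LIF, a share to set beside the 6 and the 2 together. The 6 genes are 5.94% of the 101. Among the 6 were Tcf4, Tmem176b, Mt3 and novelGene_19564, lower in OKMS, and Srgn, higher in OKMS, named because they met the rule in both media. Srgn, which encodes the granule proteoglycan serglycin, was at 12.9 and 5.82 CPM in R9 and 30.0 and 6.26 CPM in R10 in 2i-LIF, and at 33.2 and 6.47 CPM and 23.7 and 2.56 CPM late in FBS-LIF.

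Of the 13 genes that differed at day 0, before induction, 5 reached the floor in 2i-LIF and none kept a 2-fold difference. Of the 2721 genes that differed at day 6, 1620 reached the floor, 15 (0.926%) were 2-fold apart the same way in 2i-LIF and 13 the opposite way. The 1.24% of all eligible genes counts both directions, so it stands beside the 15 and the 13 together and not beside 0.926%. The regression slope of the 2i-LIF differences on the late FBS-LIF differences of the other chemistry, over 6547 genes, was -0.088 for the R10 pair and 0.064 for the R9 pair. The slopes of the FBS-LIF pairs themselves on each other were 0.084 and 0.055, so the late FBS-LIF pairs themselves shared little across chemistries. On the day 0 differences of the other chemistry the 2i-LIF slopes were 0.039 for R10 and -0.094 for R9, against 0.014 and 0.19 for the FBS-LIF pairs.

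Among the 188 genes that edgeR called late in FBS-LIF, the 69 higher in OKMS had a median log2 difference of 2.42 there and of -0.15 in 2i-LIF, and 29 of them kept the sign. The 119 lower in OKMS had a median of -2.35 late in FBS-LIF and of -0.07 in 2i-LIF, and 71 kept the sign. Of all 17750 genes tested, 8708 had a positive and 8360 a negative difference in 2i-LIF. Of the 69 genes, 64 reached 10 CPM in each 2i-LIF pair, but of the 119 only 47 did. The second median therefore includes many genes near the floor. Of those 47, 7 were past the 2-fold rule in 2i-LIF as lower in OKMS and 2 as higher, beside 0.455% and 0.788% of all eligible genes. Of the 64, 1 was past it as higher and 0 as lower. The change of the difference with medium was tested as well. On this medium difference edgeR called 47 genes (0.265%), 19 with a higher and 28 with a lower OKMS minus OKS difference in 2i-LIF, while limma called 0 (0.0%) as above. Genes named from these calls in the next paragraphs were chosen after their values were seen.

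The summed level of germline genes was higher in OKMS late in FBS-LIF and close between the systems in 2i-LIF. The 15 genes summed to 488 CPM in OKMS and 119 CPM in OKS in R9 and 387 and 70.4 CPM in R10 late in FBS-LIF, with 5 members past the 2-fold rule as higher in OKMS there, beside 68 of 8451 genes in that direction (0.805%). In 2i-LIF they summed to 818 and 802 CPM in R9 and 899 and 779 CPM in R10, above the stem cells at 434 to 495 CPM and 265 to 379 CPM. Stra8, the retinoic acid target that precedes meiosis, was at 14.8 and 2.16 CPM in R9 and 53.4 and 1.28 CPM in R10 late in FBS-LIF, and at 54.8 and 80.3 CPM and 84.6 and 87.6 CPM in 2i-LIF. Rhox5, an X-linked homeobox gene that is silenced by DNA methylation, was at 307 and 37.4 CPM and at 117 and 15.4 CPM late in FBS-LIF, and at 279 and 294 CPM and 245 and 183 CPM in 2i-LIF. Fkbp6, a piRNA pathway gene outside the list, was at 59.1 and 2.16 CPM and at 66.8 and 6.40 CPM late in FBS-LIF, and at 172 and 196 CPM and 168 and 197 CPM in 2i-LIF (medium difference edgeR adjusted p = 3.9e-08, limma adjusted p = 0.448). In 2i-LIF the median log2 difference of the germline list was -0.13 with 7 of 15 positive.

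Formative and primed genes had the opposite order of summed levels late in FBS-LIF. The 12 measured genes summed to 432 CPM in OKMS and 859 CPM in OKS in R9 and to 214 and 1023 CPM in R10 there, with 6 members past the 2-fold rule as lower in OKMS, beside 316 of 8451 genes (3.74%). In 2i-LIF they summed to 273 and 284 CPM and to 294 and 302 CPM, and the median log2 difference was -0.02 against -2.12 late in FBS-LIF. T (Brachyury), a primitive streak gene, was at 0 in OKMS and 58.9 and 42.3 CPM in OKS late in FBS-LIF, and at 0 in all 4 libraries in 2i-LIF. Otx2, a formative factor, was at 6.16 and 24.4 CPM in R9 and 4.45 and 46.1 CPM in R10 late in FBS-LIF, and at 22.6 and 12.8 CPM and 31.7 and 17.2 CPM in 2i-LIF. The 12 ERK target genes, which the MEK inhibitor is known to lower, summed to 693 and 972 CPM and to 398 and 1042 CPM late in FBS-LIF, and to 393 and 350 CPM and 411 and 397 CPM in 2i-LIF. Their median log2 difference was -1.19 late in FBS-LIF and 0.01 in 2i-LIF.

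**Figure D5:**
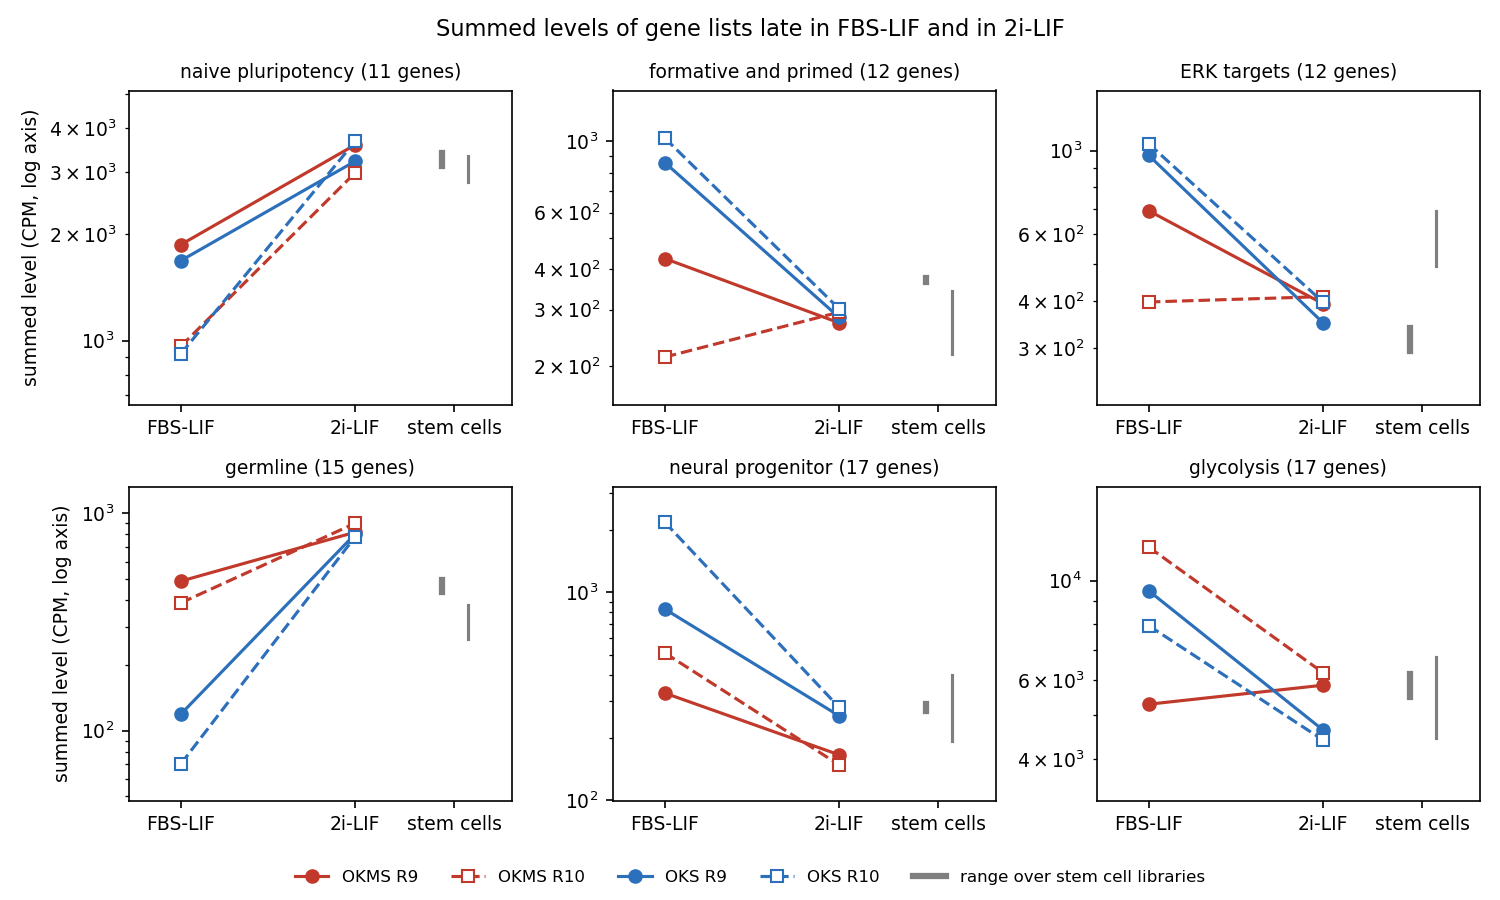
Summed level (y axis, CPM, log axis) of 6 gene lists late in FBS-LIF with doxycycline and in 2i-LIF, in OKMS (red) and OKS (blue), with R9 as filled circles and solid lines and R10 as open squares and dashed lines; grey bars are the ranges over 2 R9 (thick) and 7 R10 (thin) stem cell libraries. Germline genes are at 70.4 and 119 CPM in OKS late in FBS-LIF and at 779 to 899 CPM in all 4 libraries in 2i-LIF.

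A pair of genes past the rule in both media had opposite directions in them. Lefty1, an inhibitor of Nodal signals, was at 30.8 CPM in OKMS and 199 CPM in OKS in R9 and at 40.1 and 323 CPM in R10 late in FBS-LIF. In 2i-LIF it was at 20.4 and 9.31 CPM in R9 and at 75.8 and 21.9 CPM in R10. Gas6, a ligand of the TAM receptor kinases, was at 30.8 and 89.1 CPM and at 50.4 and 335 CPM late in FBS-LIF, and at 35.5 and 16.3 CPM and 60.0 and 26.6 CPM in 2i-LIF. The change with medium was 4.22 for Lefty1 (edgeR adjusted p = 3.9e-08, limma adjusted p = 0.448) and 3.22 for Gas6 (edgeR adjusted p = 1.6e-04, limma adjusted p = 0.672) on the log2 scale.

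Most measured glycolysis and stress genes had positive OKMS minus OKS differences in 2i-LIF, and limma called none of them, where 8708 of all 17750 genes tested had a positive and 8360 a negative difference. Of 17 glycolysis genes 14 had a positive log2 difference, with a median of 0.42 (0.43 in the R9 pair and 0.45 in the R10 pair) against 0 over all genes tested, and 2 had an unadjusted p under 0.05. Their sum was 5841 CPM in OKMS and 4639 CPM in OKS in R9 and 6230 and 4406 CPM in R10, beside 5486 to 6201 CPM and 4457 to 6737 CPM in stem cells, and 5445 CPM in OKMS at day 14. Slc2a3, the neuronal glucose transporter, was at 283 and 146 CPM and at 467 and 231 CPM, and Ldha, lactate dehydrogenase A, at 1231 and 914 CPM and at 1139 and 835 CPM. Late in FBS-LIF the glycolysis sum had no shared order, at 5297 and 9487 CPM in R9 and 11879 and 7931 CPM in R10.

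Of 12 genes of the ATF4 stress response, which follows amino acid shortage and unfolded protein, 11 had a positive log2 difference in 2i-LIF, with a median of 0.61. Ddit3 (CHOP), a late factor of that response, was at 45.1 and 20.9 CPM in R9 and at 68.8 and 17.2 CPM in R10, with 18.3 CPM in OKMS at day 14. Trib3, a pseudokinase induced by ATF4, was at 77.4 and 40.7 CPM and at 145 and 43.8 CPM, and Atf4 itself at 447 and 333 CPM and at 725 and 433 CPM. The ATF4 list summed to 2184 and 1930 CPM in R9 and to 2454 and 1550 CPM in R10, but to 1902 CPM in OKMS at day 14, just below OKS at day 20, and that library was also close to OKS for Ddit3. Of 22 sterol and fatty acid genes 16 were positive, with a median of 0.23. Of 33 growth genes linked to Myc, such as those of ribosome production, 11 were positive and 22 negative, with a median of -0.09 and 0 called by limma, edgeR or the 26-library fit.

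Other lists had single members past the rule. H2-K1, an MHC class I gene, was at 57.0 CPM in OKMS and 25.6 CPM in OKS in R9 and at 44.1 and 20.3 CPM in R10. Psmb8, an immunoproteasome subunit, was at 0 in OKMS and 38.8 and 37.1 CPM in OKS late in FBS-LIF, and at 0 in all 4 libraries in 2i-LIF. Igf2r, an imprinted receptor gene, was at 199 and 95.4 CPM in R9 and at 35.3 and 15.6 CPM in R10. Col4a1, a basement membrane collagen of the primitive endoderm list, was at 4.30 and 14.0 CPM and at 7.05 and 17.2 CPM. Dppa3, a naive and germ cell gene, was at 18.3 and 30.3 CPM and at 22.9 and 59.4 CPM, below the 2-fold size in R9. OKMS at day 14 held 28.1 CPM of H2-K1, 226 CPM of Igf2r, 3.66 CPM of Col4a1 and 57.4 CPM of Dppa3. It was thus near OKS at day 20 for H2-K1 and above it for Dppa3, and on the side of OKMS for Igf2r and Col4a1.

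Genes of the two-cell-like state, a rare state of stem cells that resembles early embryos, had opposite orders in the R9 and R10 pairs. The 6 measured two-cell-like genes summed to 65.6 CPM in OKMS and 30.3 CPM in OKS in R9, but to 68.8 and 253 CPM in R10, with at most 18.6 CPM in any stem cell library. Zscan4c, their best known member, was at 12.9 and 6.98 CPM in R9 and at 12.3 and 65.7 CPM in R10. Among markers of other cell types, the astrocyte list had a higher sum in OKMS in both pairs, 816 and 690 CPM in R9 and 1494 and 798 CPM in R10, through Apoe, a lipid carrier gene that stem cells also express, at 390 and 212 CPM in R9 and 1026 and 355 CPM in R10. Of its 9 members tested, 4 had a positive and 5 a negative difference, with a median of -0.13. Its defining marker Gfap did not exceed 3.13 CPM, and the stem cell sums were 1150 to 1275 CPM and 845 to 1919 CPM. The epithelial list also had a higher sum in OKMS in both, at 258 and 185 CPM and at 383 and 263 CPM. The 17 mesenchymal genes had no shared order and summed to 298 and 348 CPM in R9 and 337 and 228 CPM in R10, mostly from Fn1, and 4 of them were at 0 in all 4 libraries.

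Because Myc binds the E-box CACGTG, the promoters of the genes past the rule were searched for it. The window was the 250 bases before the RefSeq start (GRCm38.p6), and the motif reads the same on both strands. The motif was present in 5 of 50 windows of genes higher in OKMS (10.0%) and in 1 of 23 of genes lower in OKMS (4.35%), beside 9.87% of the 10958 genes tested that have a window and 6.02% of all 32851 windows. The shares of the higher genes and of all genes tested were thus alike, and a match is a description of the letters, not a binding site. Stretches of the windows of Igf2r and Lpin2, named above, and of Mul1, the 1 lower gene with a match, are shown because they carry the motif, in capitals, on the strand of the gene. The Igf2r window holds it 2 times, once in the stretch shown.
Igf2r: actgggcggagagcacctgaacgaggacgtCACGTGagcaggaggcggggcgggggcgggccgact
Lpin2: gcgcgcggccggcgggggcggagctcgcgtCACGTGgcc
Mul1: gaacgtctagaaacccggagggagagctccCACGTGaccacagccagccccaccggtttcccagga
These stretches lie at chr17:12769719-12769784 on the minus strand for Igf2r, chr17:71183493-71183531 on the plus strand for Lpin2 and chr4:138434531-138434596 on the plus strand for Mul1. The motif starts 48, 9 and 111 bases before the start of transcription. Mul1, a mitochondrial ubiquitin ligase, was at 7.52 and 17.5 CPM in R9 and 14.1 and 29.7 CPM in R10.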

How the data were processed

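The authors deposited a table of gene-level CPM, read counts scaled to a common total, with 45 columns used here, and 13 further columns were not used. Reads were aligned with minimap2 (2.24-r1122) to mm10, per the submitters' processing notes, and the counting tool and its use of strand are not given in the sources used here. R9 is direct cDNA of poly(A)-enriched RNA and R10 PCR cDNA of total RNA, per the labels' protocols. All values were whole multiples of 1 read (100% within 0.02 reads in each library), so whole reads were recovered from the deposited CPM for depth, thinning, edgeR and DESeq2.

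The main test was limma (3.58.1, R 4.3.3, with trend) on log2(CPM + 1) for genes with at least 1 CPM in 2 of 8 libraries (OKMS and OKS in 2i-LIF and late in FBS-LIF with doxycycline), with each pair of equal day, medium and chemistry as a block, called at a Benjamini-Hochberg adjusted p of 0.05 and 2-fold. It was also run on simulated counts that had no differences between chemistries, days or media apart from those put in. That run therefore does not measure how many true differences the test can find in these libraries. edgeR (4.0.16) and DESeq2 (1.42.0) were alternatives, beside other filters, pseudocounts, scalings, thinned reads and sets of libraries. Genes were named by this rule: the 10 top annotated genes per direction, the 3 top lncRNA genes per direction, the introduced factors, naive pluripotency genes and up to 4 members of each list past the 2-fold rule. As limma called none, the top genes were those past the 2-fold rule, ranked by the smaller of the 2 absolute pair differences. The naming rule also covered genes called late in FBS-LIF or between media by limma, and genes 2-fold apart at day 0 and in 2i-LIF, of which there were none. Other genes were named after their values were seen. A few genes that the rule covers are not reported here. The libraries compared and the gene lists were chosen with earlier results of these data known. Poisson intervals are exact at 95%, and a count of 0 reads is given the level of 3 reads as its limit. Promoter windows came from RefSeq (GRCm38.p6).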

Additional observations from a re-analysis of the deposited data

Results flagged for a closer look

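A pair of genes had an OKMS minus OKS difference with opposite signs in the media in both chemistries, and edgeR called the difference between media. For Lefty1 the difference was higher in 2i-LIF than in FBS-LIF with doxycycline by 4.22 on the log2 scale (limma standard error 0.47, adjusted p = 0.448, edgeR adjusted p = 3.9e-08). For Gas6 it was higher by 3.22 (limma standard error 0.52, adjusted p = 0.672, edgeR adjusted p = 1.6e-04). In FBS-LIF both genes were higher in OKS in 2 of 2 pairs, and in 2i-LIF both were higher in OKMS in 2 of 2 pairs.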

How the results depend on the processing

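No paired analysis was possible because the OKMS and OKS libraries in 2i-LIF carry no replicate numbers, in the sense of a block by number. The block of the limma fit was instead the pair of equal day, medium and chemistry. For 2i-LIF, where limma called 0 genes, the count was 2 with no filter, 2 at a minimum of 5 CPM, 2 with median centring, 2 with no pair block, 1 with OKMS at day 14 added, 1 with DESeq2, 8 with edgeR, 12 with only the 4 libraries in 2i-LIF and 91 over 26 libraries. It was 0 with quantile normalization, a pseudocount of 0.25, thinned reads and without each pair in turn. For late FBS-LIF the count of 0 became 17 with no filter, 26 at 5 CPM, 20 with median centring, 188 with edgeR, 30 with DESeq2, 30 with no pair block, 17 with the day 14 pair added, 63 with only the 4 FBS-LIF libraries and 1173 over 26 libraries. For the difference between media it became 4 at 5 CPM, 47 with edgeR, 6 with DESeq2, 3 with no pair block and 70 over 26 libraries. In the fit over 26 libraries the FBS-LIF term also held the R9 pairs of days 10 and 14. Its counts of 1173 and 70 are therefore not of the same days as the others.

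The 101 genes of the 2-fold rule became 211 at 5 CPM, 39 at 20 CPM and 153 with thinned reads, of which 74 were among the 101. The percent of genes 2-fold apart became 11.8 (R9) and 20.0 (R10) in 2i-LIF and 20.0 and 30.2 in FBS-LIF at 5 CPM, 22.2 in R10 FBS-LIF with median centring, and 10.5 (R9 2i-LIF), 18.3 (R9 FBS-LIF) and 24.4 (R10 FBS-LIF) with thinned reads. Median centring shifts the R10 FBS-LIF pair most, whose median log2 difference was -0.24. With genes of the same chemistry the R9 positions were 0.919 for OKMS and 0.907 for OKS at day 20, and 0.923 for OKMS at day 14. The slope on day 0 was -0.045 for R9 and 0.016 for R10 at 5 CPM.

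Of 700 alternative values for 50 named genes, 650 kept their direction without being called, 32 were called and 18 changed sign. The sign changes were in uncalled pluripotency genes. Fgf4 became -0.014 with quantile normalization, -0.04 with edgeR and -0.033 with DESeq2, Klf4 -0.002 with thinned reads, Nanog -0.012 with edgeR and -0.0 with DESeq2, and Nr0b1 0.044 with thinned reads and 0.005 with OKMS at day 14. Without the R9 or the R10 pair in 2i-LIF the values ranged from -0.266 to 0.436 for Esrrb, -0.074 to 0.077 for Fgf4, -0.537 to 0.112 for Klf2, -0.239 to 0.454 for Klf4, -0.206 to 0.278 for Nanog, -0.471 to 0.342 for Nr0b1, -0.089 to 0.274 for Pou5f1, -0.217 to 0.671 for Sox2, -0.576 to 0.004 for Tbx3 and -0.374 to 0.051 for Zfp42.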

Other observations

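A few genes set both systems apart from stem cells in 2i-LIF, and were chosen after their values were seen. Meg3, an imprinted lncRNA of the Dlk1-Dio3 region, was at 6.45 CPM in OKMS and 17.5 CPM in OKS in R9 and at 14.1 and 9.39 CPM in R10, against 157 to 210 CPM and 153 to 251 CPM in stem cells. Rian, of the same region, was at 6.45 and 22.1 CPM in R9 and at 19.4 and 10.9 CPM in R10, against 67.0 to 94.7 CPM and 134 to 193 CPM. OKMS at day 14 held 0 CPM of Meg3 and 1.22 CPM of Rian. Dazl, a germ cell RNA-binding protein gene, was at 306 and 268 CPM in R9 and at 354 and 327 CPM in R10, above the 130 to 138 CPM and 82.4 to 123 CPM of stem cells, while OKMS at day 14 held 89.2 CPM. For Meg3 and Rian all 5 libraries in 2i-LIF were below every stem cell library of their chemistry. For Dazl the libraries of days 20 and 18 were above every stem cell library, and OKMS at day 14 was below the R9 ones.

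Counting depth limits what these pairs can show. A count of 0 reads allows a level of up to 3.22 CPM in the deepest and 5.29 CPM in the shallowest of the 5 libraries. There is 1 library per condition, day and chemistry differ together between the pairs, and time and the spread between libraries cannot be told apart in the comparison of OKMS at days 14 and 20.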
